A study of Mus musculus with 10 samples.

Results

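The genes described here carry calcium through a ventricular heartbeat: 10 genes, read by 30 of the 35556 probe sets on the array, out of 19938 genes that have a probe set with 1 gene symbol. They were chosen by function, as genes of calcium entry, release, reuptake and the junction between the surface membrane and the calcium store. Earlier results of these data were known at that choice. RNA was taken from both ventricles (cardiac biventricle), on 10 Affymetrix arrays, 5 per group, each from a mouse of its own; the p-values measure the spread between these 10 samples. All 10 mice carried the label of a PGC-1α knockout (PGC-1a-/-, gene Ppargc1a). The source names further give both groups floxed PGC-1β alleles and the inducible recombinase MerCre (PGC-1a-/-bf/f/MerCre), while the titles call the vehicle arrays PGC-1a-/- only. The vehicle-labelled mice received sunflower seed oil and carried the label of unaffected PGC-1β. The tamoxifen-labelled mice received tamoxifen in that oil (10 mg/ml), 50 mg/kg on each of 2 days, and carried the label of a knockout of PGC-1α and PGC-1β. Injections were at 2 months of age and hearts were taken 1 month later, at 3 months. The labels name no promoter for MerCre, and no array came from a mouse with normal PGC-1α or from a mouse given tamoxifen without the floxed alleles, so loss of PGC-1β, Cre activity and tamoxifen itself cannot be told apart. The comparison asks how the adult ventricle without PGC-1α differs once PGC-1β is also targeted.

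In cardiac muscle, depolarisation opens L-type calcium channels in the T-tubule, and the entering calcium opens ryanodine receptors on the sarcoplasmic reticulum, the intracellular calcium store, whose release triggers contraction. Relaxation follows when a calcium pump refills the store and an exchanger carries calcium out of the cell in return for sodium. Small membrane proteins brake the pump, buffer proteins hold calcium inside the store, and junctional proteins keep channel and receptor side by side.

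The labels were checked on the targeted genes. The signal of Ppargc1b, labelled as removed by tamoxifen, was 9.65 to 9.90 on the log2 scale in the vehicle-labelled arrays and 9.93 to 10.15 in the tamoxifen-labelled ones, a rise of 0.27 ± 0.061 (SE; limma adjusted p = 0.00528). Ppargc1a read 10.70 to 11.04 and 10.95 to 11.58, a rise of 0.39 ± 0.095 (limma adjusted p = 0.00813). It was brighter than 94.85% of genes, although all 10 mice carried the label of its knockout. No array with normal PGC-1α was there to set this level against. The Ppargc1b reading goes against its label, and the Ppargc1a reading shows no sign of the loss in its label. Neither files nor labels place these probe sets inside or outside the deleted part, and a probe set outside it checks nothing, so every direction below is between arrays named by their labels. Ventricular muscle markers were bright in every array, and of 10 only Myh7 was called (higher). The summed linear signal of the defining markers Myl2, Myh6, Tnni3 and Irx4 was 50157 to 51538 in the vehicle-labelled and 49859 to 51733 in the tamoxifen-labelled arrays. Over all 10 ventricular markers the sum was 138726 to 140778 against 143144 to 146827, without overlap. Some markers of other cells differed between the groups, where 13.6% of all tested genes were called higher. Of 7 macrophage markers 6 rose (summed signal of all 7, 5104 to 5876 against 6050 to 7331). The sum of the defining markers Csf1r, Adgre1 and C1qa overlapped, at 1180 to 1430 against 1358 to 1635. Of 7 fibroblast markers 4 rose, Col1a1, Col1a2, Col3a1 and Lum (summed signal of all 7, 15693 to 16495 against 17159 to 18341). Dcn, the brightest of the 7, was not called. The defining markers Pdgfra and Tcf21 were not called either (0.018 and 0.046). With Col1a1 their sum overlapped, at 1581 to 1866 against 1695 to 1957. Rises were called in 1 of 6 endothelial and 2 of 5 smooth muscle markers. Of 10 skeletal muscle markers, 7 were bright enough to be tested and 1 rose, Tnni2; Mylpf, Myh4 and Myh1 lay below the brightness cutoff. No marker on this scale has a true 0. Their part in the results below was not tested, and in bulk tissue fewer cells of a type and less RNA per cell cannot be told apart. Tamoxifen array 2 was the brightest as a whole, with a median of 7.31 against 7.18 to 7.24 in the other 9.

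Each value below is the authors' log2 signal, and each log2 fold change is the tamoxifen-labelled mean minus the vehicle-labelled mean, with its SE after ±. A gene counts as called where its limma p, adjusted with Benjamini-Hochberg over 13953 tested genes, is under 0.05. In estimating the spread of a gene, limma also draws it toward the spread common to all tested genes. All 10 genes passed the brightness filter.

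Of the 10 genes, 2 rose, Trdn and Jph2, and 2 fell, Ryr2 and Hrc. Across all tested genes the share called was 21.9%, with 13.6% higher and 8.28% lower. The median log2 fold change of the 10 genes was 0.018, against 0.014 over all tested genes, and the median size regardless of sign was 0.14 against 0.088. The changes were small: the highest fold among the 4 called genes was 1.18. In 2 of the 10 genes, Trdn and Hrc, the groups did not overlap, against 16.6% of all tested genes.

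**Figure D1:**
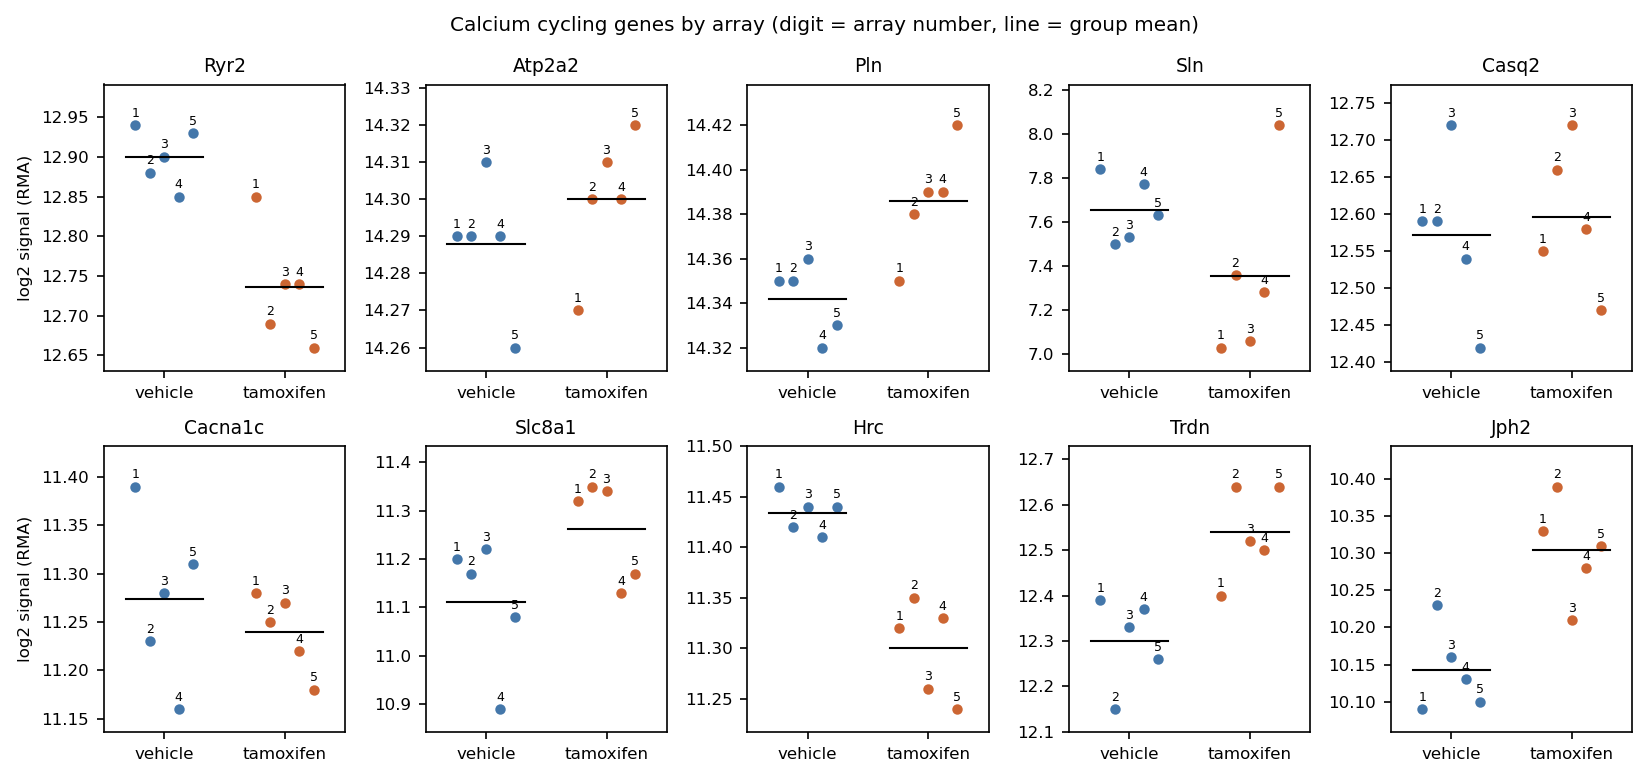
Log2 RMA signal of each of the 10 genes on every array, with vehicle-labelled arrays in blue, tamoxifen-labelled arrays in orange, the array number above each point and a line at the group mean; each panel has its own axis range. Trdn and Hrc show groups that do not overlap, Ryr2 touches at 12.85, and in Sln tamoxifen array 5 at 8.04 lies above every other array.

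Promoter sequence was available in RefSeq (build GRCm38.p6) for 7 of the 10 genes; Atp2a2, Sln and Trdn are named only. The 250 bases before the gene start are shown for the called genes Ryr2, Hrc and Jph2 and, for comparison, for Casq2, which was not called. The search covered AGGTCA, the half-site that nuclear receptors bind, its extended form AAGGTCA, to which the PGC-1 partners of the ERR family bind, the muscle factor motif MEF2, GATAAG for GATA factors and the E-box CANNTG, all on both strands. AAGGTCA contains AGGTCA. Capitals mark AGGTCA or its reverse complement, and in Casq2 the MEF2 match.

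Ryr2, chr13:12106946-12107195, minus strand: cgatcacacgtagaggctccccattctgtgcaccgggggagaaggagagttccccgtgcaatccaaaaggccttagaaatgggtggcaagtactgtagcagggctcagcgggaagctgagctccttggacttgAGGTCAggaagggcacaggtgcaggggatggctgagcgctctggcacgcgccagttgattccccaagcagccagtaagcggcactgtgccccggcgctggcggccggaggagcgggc
Jph2, chr2:163397994-163398243, minus strand: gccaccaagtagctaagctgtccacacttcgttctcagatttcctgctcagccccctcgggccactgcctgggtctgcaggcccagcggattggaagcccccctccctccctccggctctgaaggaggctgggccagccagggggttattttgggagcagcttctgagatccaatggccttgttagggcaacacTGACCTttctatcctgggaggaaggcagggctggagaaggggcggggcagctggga
Hrc, chr7:45335019-45335268, plus strand: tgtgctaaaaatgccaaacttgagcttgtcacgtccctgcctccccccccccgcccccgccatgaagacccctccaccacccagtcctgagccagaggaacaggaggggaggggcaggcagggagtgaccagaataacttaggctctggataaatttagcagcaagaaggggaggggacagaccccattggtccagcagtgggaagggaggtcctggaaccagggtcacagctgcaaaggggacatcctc
Casq2, chr3:102086165-102086414, plus strand: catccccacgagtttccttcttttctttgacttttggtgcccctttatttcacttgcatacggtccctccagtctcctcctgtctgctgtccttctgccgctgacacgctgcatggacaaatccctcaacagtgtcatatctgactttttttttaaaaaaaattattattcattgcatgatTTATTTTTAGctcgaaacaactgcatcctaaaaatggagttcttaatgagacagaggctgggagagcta

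AGGTCA stood in Ryr2, beginning 117 bases before the start, and in Jph2, on the opposite strand, where it was part of AAGGTCA. In Jph2 it stood 56 bases before the start shown and 76 bases before another listed start. Ryr2 fell and Jph2 rose. Of 32851 promoter windows of the same length in the table, 14% held AGGTCA and 4.08% held AAGGTCA. The Casq2 window held a MEF2 match, as did 2.92% of all windows. GATAAG stood in Pln and Slc8a1 and in 6.55% of all windows. CANNTG stood in every window of the 7 genes, which have 10 listed starts in all, and in 66.2% of all windows. In the Hrc window none of the motifs but CANNTG was found.

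Ryr2 encodes the cardiac ryanodine receptor, the channel through which the store releases calcium. Its signal was 12.94, 12.88, 12.90, 12.85 and 12.93 in vehicle arrays 1 to 5 and 12.85, 12.69, 12.74, 12.74 and 12.66 in tamoxifen arrays 1 to 5. The groups met at 12.85, where the lowest vehicle array equalled tamoxifen array 1. The mean went from 12.90 ± 0.037 to 12.74 ± 0.072 (SD, n = 5 per group), a fall of 1.12-fold (-0.16 ± 0.049, limma adjusted p = 0.0241). Leaving out vehicle array 1, 3 or 5, or tamoxifen array 5, ended the call (adjusted p from 0.0514 to 0.0645); the alternatives as a whole spanned 0.000861 to 0.0645.

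Hrc encodes a histidine-rich protein of the store lumen that binds calcium and contacts both triadin and the pump. It read 11.46, 11.42, 11.44, 11.41 and 11.44 in the vehicle-labelled arrays. In the tamoxifen-labelled arrays it read 11.32, 11.35, 11.26, 11.33 and 11.24. All 5 of the latter lay below all 5 of the former. The fall was 1.097-fold (-0.13 ± 0.045, limma adjusted p = 0.0417) and the call was fragile. It held among the 10 leave-one-out fits only without tamoxifen array 2 (adjusted p = 0.0174). Without any other array the adjusted p was 0.0520 to 0.0989. The alternatives as a whole spanned adjusted p from 0.00304, after quantile normalization, to 0.0989.

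Trdn encodes triadin, the membrane protein that ties calsequestrin and Hrc to the ryanodine receptor. The probe set with the highest mean read 12.39, 12.15, 12.33, 12.37 and 12.26 in the vehicle-labelled arrays and 12.40, 12.64, 12.52, 12.50 and 12.64 in the tamoxifen-labelled ones. The groups were apart by the narrowest of margins, vehicle array 1 at 12.39 and tamoxifen array 1 at 12.40. The mean rose from 12.30 ± 0.097 to 12.54 ± 0.10 (SD, n = 5 per group), or 1.18-fold (0.24 ± 0.061, limma adjusted p = 0.00986). Trdn kept its call in all 10 leave-one-out fits, with adjusted p from 0.00607 to 0.0295.

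Trdn was covered by 19 probe sets, and each was also tested in a fit over all 21789 probe sets with 1 symbol, an alternative added after seeing the data. All 19 had a positive log2 fold change, from 0.068 to 0.72 with a median of 0.27, and 10 were called higher and 0 lower, against 7.65% and 5.14% of all probe sets (12.8% in either direction). The other 9 were not called. They read the same RNA of the same gene in the same mice and are no replicates of each other. Probe set 10362416 had group means of 6.15 and 6.86, whose average lies just below the 6.53 cutoff used for genes, and 10362454 read only 2.25 to 4.47, so both are dim. The highest fitted changes came from probe sets 10362416 (0.72 ± 0.15, adjusted p = 0.00567) and 10362456 (0.54 ± 0.10, adjusted p = 0.00375), whose signals were between 5.92 and 7.58. Probe set 10362404, annotated with 5 accessions where the other 18 have 1, had a lower change than all but 1 of the others (0.090 ± 0.050, adjusted p = 0.283) at signals of 12.04 to 12.26.

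The arrays were not alike across these probe sets. Vehicle array 4 was the highest of its group in 13 of the 19 and vehicle array 2 the lowest in 11. Tamoxifen array 5 was the highest of its group in 15 and lay above every vehicle array in 18. Tamoxifen array 1 was the lowest of its group in 15 and lay above every vehicle array in 4. The count of called probe sets went from 10 to 3 without vehicle array 2 or tamoxifen array 5, to 4 without vehicle array 5, to 6 without vehicle array 3 or tamoxifen array 3, and to 12 without tamoxifen array 1, with all 19 positive in each of the 10 fits.

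**Figure D2:**
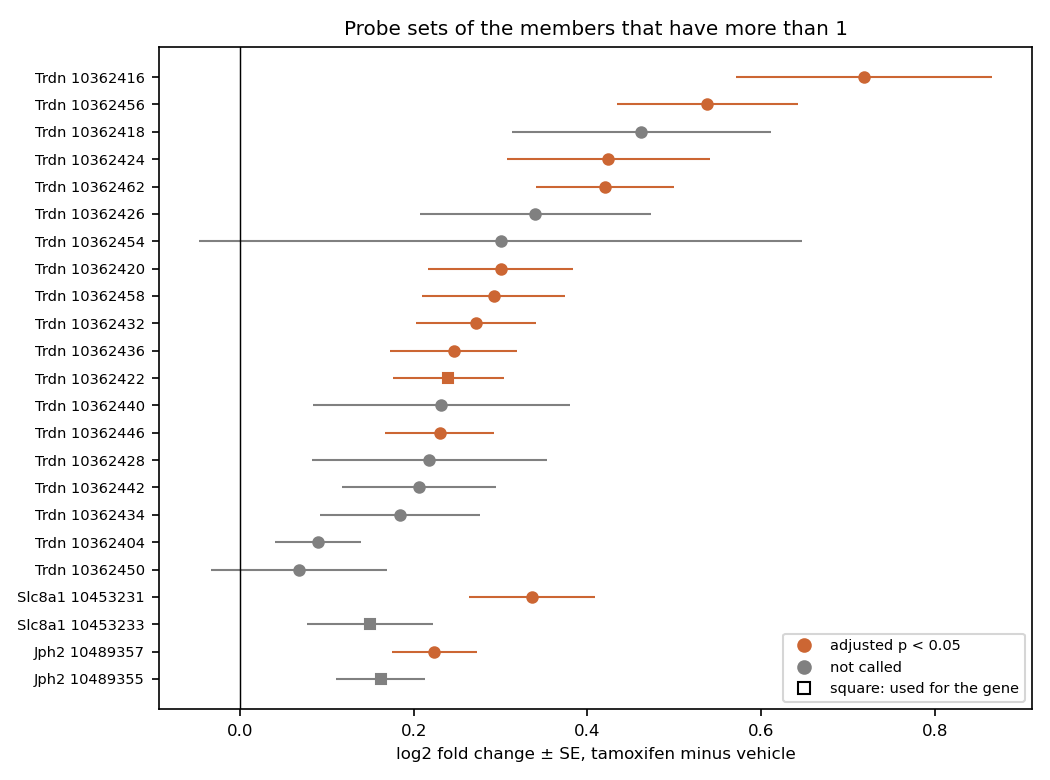
Log2 fold change with its SE for each probe set of Trdn (19), Slc8a1 (2) and Jph2 (2), in orange where the adjusted p over all 21789 probe sets was under 0.05; squares mark the probe set used for the gene. All lie above 0, and the Trdn probe sets spread from 0.068 to 0.72.

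Jph2 encodes junctophilin, which anchors the store membrane to the T-tubule. Its brighter probe set read 10.09, 10.23, 10.16, 10.13 and 10.10 in the vehicle-labelled arrays and 10.33, 10.39, 10.21, 10.28 and 10.31 in the tamoxifen-labelled ones, so that vehicle array 2 lay above tamoxifen array 3. The rise was 1.12-fold (0.16 ± 0.050, limma adjusted p = 0.0285). Leaving out vehicle array 1, 3 or 5, or tamoxifen array 1 or 5, ended the call (adjusted p from 0.0516 to 0.0705). The other Jph2 probe set (10489357) rose by 0.22 ± 0.049 (adjusted p = 0.00842 over all probe sets) with no overlap, at 9.99 to 10.05 against 10.15 to 10.33, and stayed called in all 10 leave-one-out fits (0.00805 to 0.0259). In that fit over more features, the brighter Jph2 probe set and Hrc were at adjusted p = 0.0546 and 0.0698.

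Casq2 encodes cardiac calsequestrin, the main calcium buffer of the store. Its signals overlapped widely, at 12.59, 12.59, 12.72, 12.54 and 12.42 against 12.55, 12.66, 12.72, 12.58 and 12.47. The difference was 0.024 ± 0.062 (limma adjusted p = 0.829), with a 95% interval of 0.928 to 1.11 as a ratio. Within an array, the log2 signal of Casq2 minus that of Ryr2 went from -0.33 ± 0.12 to -0.14 ± 0.12 (SD, n = 5 per group), a shift of 0.19 ± 0.075 (SE; exact two-sided permutation p = 0.0476, adjusted p = 0.0952 over 4 such differences). That shift did not pass after adjustment.

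**Figure D3:**
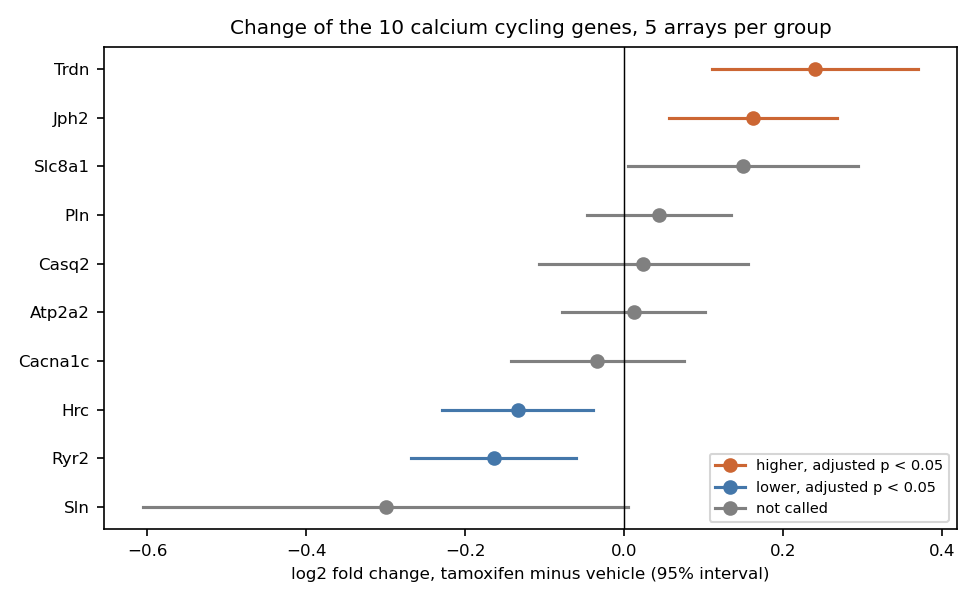
Log2 fold change of the 10 genes with 95% intervals from limma, in orange for called higher, blue for called lower and grey for not called. The interval of Sln, from -0.61 to 0.0055, is the widest, and that of Atp2a2, from -0.078 to 0.10, is the narrowest.

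Of the genes that return calcium to the store, none was called by limma with all arrays, and the lowest unadjusted p was 0.0538, for Sln. Atp2a2 encodes the cardiac calcium pump. Its 10 signals lay between 14.26 and 14.32, and the difference was 0.012 ± 0.042 (limma adjusted p = 0.877), with a 95% interval of 0.948 to 1.07 as a ratio. Pln encodes phospholamban, the small protein that inhibits the pump until it is phosphorylated. It read 14.35, 14.35, 14.36, 14.32 and 14.33 in the vehicle-labelled arrays and 14.35, 14.38, 14.39, 14.39 and 14.42 in the tamoxifen-labelled ones, a difference of 0.044 ± 0.043 (adjusted p = 0.510; ratio 0.968 to 1.098). The limma SE of both genes leans on the spread common to all tested genes. Where that spread could depend on signal (trended and robust prior), the SE was 0.025 for each. Neither was called there (limma adjusted p = 0.227 for Pln and 0.796 for Atp2a2). Signals of both genes were close to the highest of any probe set with 1 symbol, 14.66, where differences in RNA can be compressed. How far was not tested.

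The signals of Pln and Atp2a2 were also set against each other. Within an array, Pln minus Atp2a2 was 0.06, 0.06, 0.05, 0.03 and 0.07 in the vehicle-labelled arrays and 0.08, 0.08, 0.08, 0.09 and 0.10 in the tamoxifen-labelled ones. The groups did not overlap, and the shift of 0.032 ± 0.0079 (SE) had an exact two-sided permutation p of 0.00794, which is as low as this design goes (adjusted p = 0.0317 over 4 differences). The deposited values are given to 2 decimals, so that this shift is a few steps of rounding, between probe sets near the top of the scale, and neither gene was called on its own; it is given as a difference in signal, not as a change in RNA. Without tamoxifen array 2, 3 or 4 the adjusted p was 0.0635, while the groups still did not overlap.

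Sln encodes sarcolipin, another small inhibitor of the pump, known for its high expression in atria and low expression in adult ventricles. It read 7.84, 7.50, 7.53, 7.77 and 7.63 in the vehicle-labelled arrays and 7.03, 7.36, 7.06, 7.28 and 8.04 in the tamoxifen-labelled ones. Of the latter, 4 lay below every vehicle array and tamoxifen array 5 lay above every one. The difference was -0.30 ± 0.14 (limma adjusted p = 0.155) and was not called. Without tamoxifen array 5 it was -0.47 with an adjusted p of 0.00111, and the alternatives spanned adjusted p from 0.00111 to 0.335. Sln minus Atp2a2 shifted by -0.31 ± 0.19 (exact permutation p = 0.159, adjusted p = 0.159 over 4 differences), and by -0.48 without tamoxifen array 5 (adjusted p = 0.0317).

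Atrial markers varied over the same arrays. The atrial light chain gene Myl7 read 8.99, 10.03, 8.81, 9.64 and 10.54 in tamoxifen arrays 1 to 5, against 9.70 to 10.04 in the vehicle-labelled arrays. The other atrial light chain gene, Myl4, read 11.24, 11.90, 11.04, 11.60 and 12.26 against 11.63 to 11.97. Bmp10, a growth factor gene of the right atrium, read 5.25, 5.70, 5.59, 5.46 and 7.49 against 5.49 to 6.71. All 3 were highest in tamoxifen array 5, as Sln was, and Sln, Myl7 and Myl4 were low in tamoxifen arrays 1 and 3. The summed linear signal of these 3 defining markers was 4046 to 5154 in the vehicle-labelled and 2603 to 6574 in the tamoxifen-labelled arrays. Of the 9 atrial markers 8 were tested. Nppa rose (0.42 ± 0.072), Kcnj3 fell (-0.57 ± 0.070) and the others were not called. The summed signal of all 9 was 14451 to 16636 against 14995 to 21260. Nppa, the brightest of the 9, weighed most in that sum (mean log2 signal 13.21, against 11.69 for the next, Myl4). Without tamoxifen array 5, Myl7 and Myl4 differed by -0.43 and -0.33 (adjusted p = 0.115 and 0.0964). The part of atrial tissue in the Sln values was not tested.

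**Figure D4:**
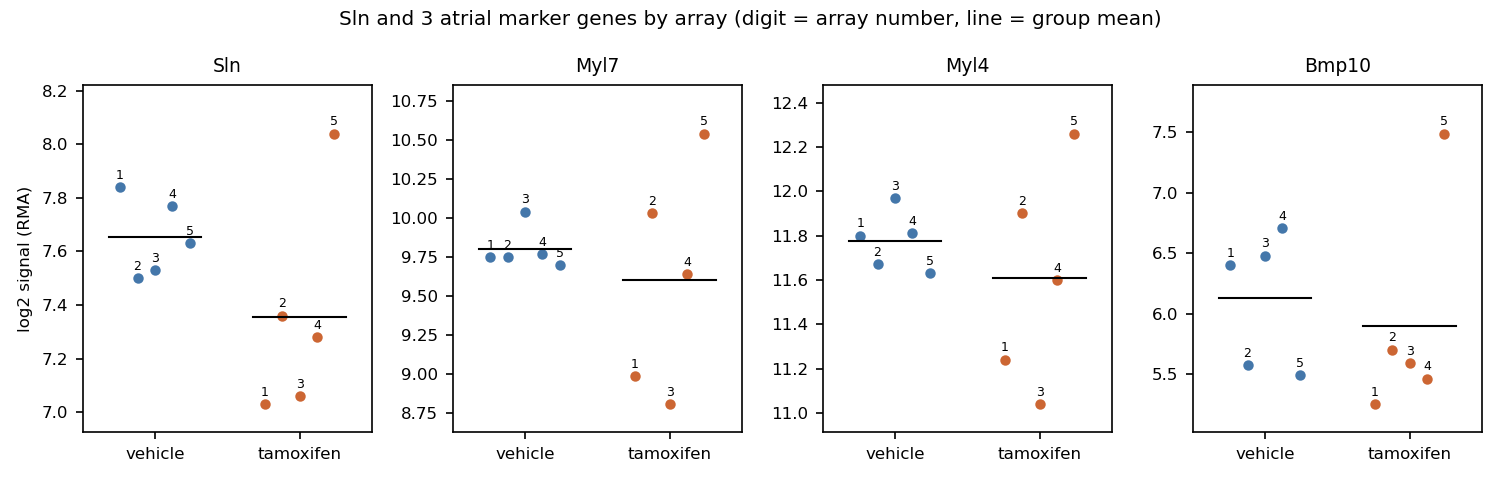
Log2 RMA signal of Sln and of the atrial markers Myl7, Myl4 and Bmp10 on every array, with array numbers and a line at each group mean; axis ranges differ between panels. Tamoxifen array 5 is the highest array in all 4 panels, and tamoxifen arrays 1 and 3 are the lowest in Sln, Myl7 and Myl4.

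Calcium entry and extrusion were read by Cacna1c and Slc8a1. Cacna1c encodes the pore of the L-type channel. It read 11.39, 11.23, 11.28, 11.16 and 11.31 against 11.28, 11.25, 11.27, 11.22 and 11.18, a difference of -0.034 ± 0.051 (limma adjusted p = 0.695; ratio 0.906 to 1.05). Slc8a1 encodes the sodium-calcium exchanger, the main route of calcium out of the myocyte. Its brighter probe set read 11.20, 11.17, 11.22, 10.89 and 11.08 against 11.32, 11.35, 11.34, 11.13 and 11.17. Tamoxifen arrays 1, 2 and 3 lay above every vehicle array and the other 2 within their range, and the difference of 0.15 ± 0.068 was not called (adjusted p = 0.132).

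The answer for Slc8a1 depended on the probe set. Probe set 10453231 rose by 0.34 ± 0.073 (adjusted p = 0.00770 over all probe sets). It read 10.09, 10.13, 10.15, 9.85 and 10.03 in the vehicle-labelled arrays and 10.30, 10.57, 10.45, 10.33 and 10.28 in the tamoxifen-labelled ones, with no overlap. It stayed called without any 1 array (0.00989 to 0.0217). With both probe sets averaged, Slc8a1 was higher by 0.24 (adjusted p = 0.0152). Slc8a1 minus Atp2a2, from the brighter probe set, shifted by 0.14 ± 0.077 (exact permutation p = 0.103, adjusted p = 0.138 over 4 differences); with averaged probe sets the shift was 0.23 (adjusted p = 0.0159).

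The 10 genes did not vary over the tamoxifen-labelled arrays in 1 common order. Tamoxifen array 5 had the lowest Ryr2, Hrc, Casq2 and Cacna1c signals and the highest Sln, Pln and Atp2a2 signals, and shared the highest Trdn signal with tamoxifen array 2. Tamoxifen array 1 was the nearest to the vehicle-labelled arrays for Ryr2 and Trdn. Among the vehicle-labelled arrays, array 4 had the lowest Ryr2, Pln, Hrc, Cacna1c and Slc8a1 signals.

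A wider list of calcium cycling genes was read by role. Of 62 symbols listed, 52 were measured and 49 tested. Of these, 12 rose, 4 fell and 33 were not called. The share called was 32.7%, against 21.9% of all tested genes, with 13.6% higher and 8.28% lower among the latter. The list was chosen with earlier results of these data known, so its share is not independent of them. The median log2 fold change of the 49 tested genes was 0.076. Of 7 macrophage markers 6 rose in the same arrays, and of 7 fibroblast markers 4, as given above. The summed defining markers of each overlapped between the groups. Several genes of the list are also expressed outside myocytes, and the part of other cells in these calls was not tested.

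Among 8 tested genes of calcium entry, 3 rose and 1 fell. Cacna2d1, the extracellular auxiliary subunit of the L-type channel, fell from 11.54 ± 0.072 to 11.26 ± 0.070 (SD, n = 5; -0.28 ± 0.052, limma adjusted p = 0.00120). Cacnb1, a cytoplasmic subunit known mainly from skeletal muscle, rose from 7.65 ± 0.029 to 8.01 ± 0.096 (0.36 ± 0.052, adjusted p = 0.000104). Rrad, a small GTPase that restrains the channel, rose by 0.29, and the channel-binding scaffold gene Ahnak by 0.18. Among 10 partners of the release channel, 4 rose and 1 fell. Camk2d, the main cardiac calcium- and calmodulin-dependent kinase, rose by 0.27 ± 0.050 (adjusted p = 0.00104), with Camk2g at 0.15 and the calmodulin genes Calm2 and Calm3 at 0.24 and 0.22. Itpr2, the receptor through which inositol trisphosphate releases calcium, fell by 0.19. Asph, whose junctin product sits beside triadin, was not called (0.050 ± 0.045, adjusted p = 0.469). Fkbp1a was not called (0.15 ± 0.053, limma adjusted p = 0.0624). Its adjusted p spanned 0.0166 to 0.149 over the alternatives. Fkbp1b, which stabilises the closed release channel, lay below the brightness cutoff.

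At the junction and in the store, 2 of 13 rose. Cav3, the muscle caveolin, rose from 8.57 ± 0.11 to 8.96 ± 0.15 (0.39 ± 0.072, limma adjusted p = 0.000991) and Srl, the luminal protein sarcalumenin, by 0.20 ± 0.047 (adjusted p = 0.00570). Jph1, another junctophilin, was at 0.15 ± 0.071 (adjusted p = 0.146) and Ank2 at 0.11 ± 0.060 (adjusted p = 0.194). Bin1, which shapes T-tubules, was at -0.020. Around the pump, 2 of 8 rose and 1 fell. Mrln, a micropeptide inhibitor of the pump known from skeletal muscle, rose by 0.28 ± 0.067 (adjusted p = 0.00702) and the phosphatase catalytic subunit gene Ppp1ca by 0.16. Akap7, which anchors protein kinase A near phospholamban, fell from 9.79 ± 0.070 to 9.53 ± 0.079 (-0.26 ± 0.053, adjusted p = 0.00231). Of 6 genes of extrusion and sodium coupling, Atp1b1, a sodium pump subunit, fell by 0.16 and 5 were not called. Of 4 troponin genes, Tnnc1, the calcium sensor of the cardiac thin filament, rose by 0.13 and 3 were not called.

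**Figure D5:**
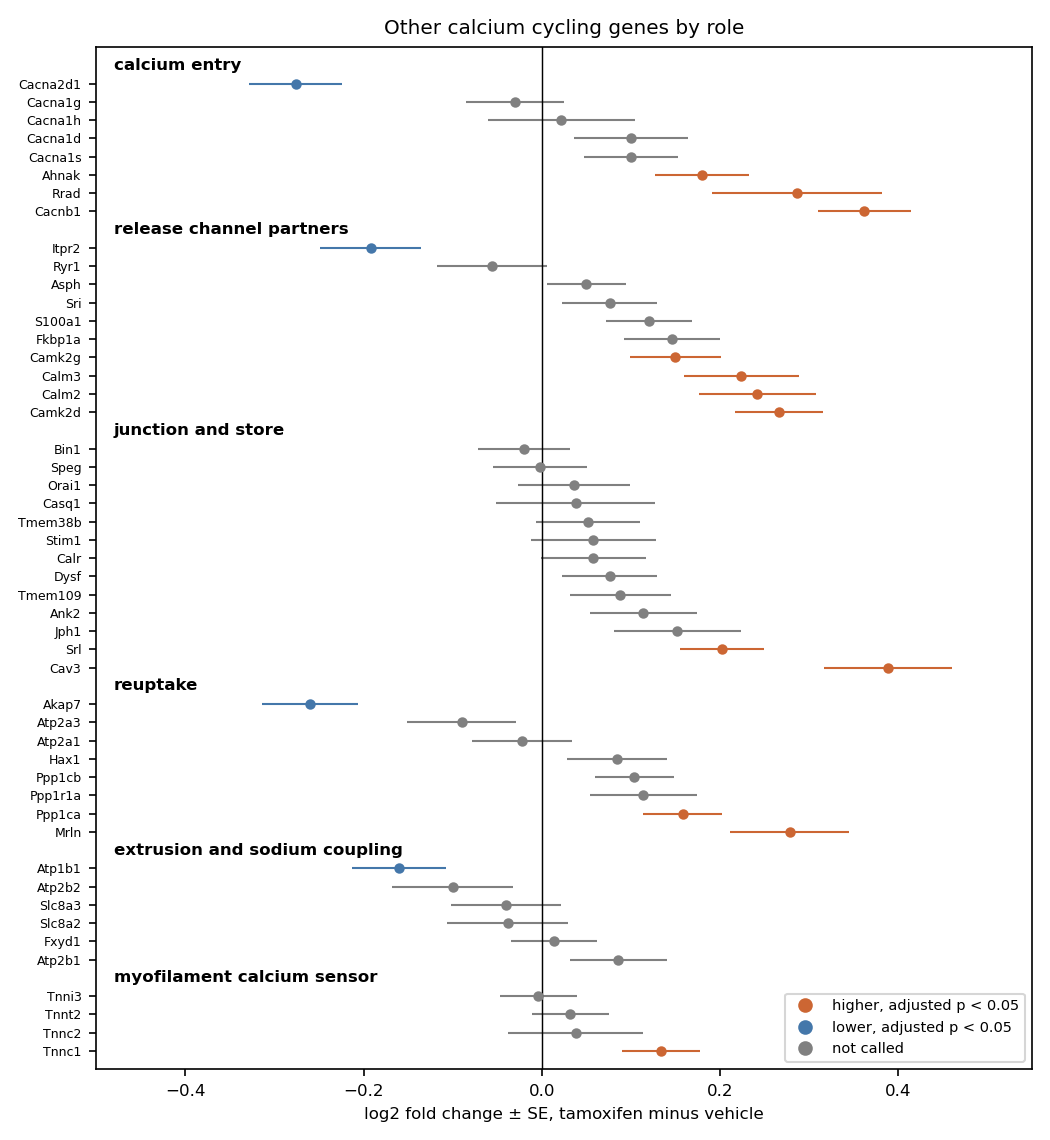
Log2 fold change with its SE for the 49 tested genes of the wider calcium cycling list, grouped by role, in orange for called higher, blue for called lower and grey for not called. Calls run from Cacna2d1 at -0.28 to Cav3 at 0.39, and 33 of the 49 genes are grey.

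Of these 16 called genes, 9 kept the call in all 10 leave-one-out fits and none changed direction in any alternative. With 1 array left out, Camk2g lost its call in every fit but that without vehicle array 3 (adjusted p up to 0.125), and Tnnc1 in every fit but that without tamoxifen array 2 (up to 0.0853). Rrad lost its call on leaving out vehicle array 1, 4 or 5, or tamoxifen array 1, 2 or 4 (up to 0.104). Atp1b1 lost it on leaving out vehicle array 1, 3 or 4, or tamoxifen array 1, 4 or 5 (up to 0.102). Itpr2 lost it on leaving out vehicle array 1 or 5, or tamoxifen array 4 or 5 (up to 0.0634), Ahnak without vehicle array 4 or tamoxifen array 1 or 4 (up to 0.0599) and Calm3 without vehicle array 2 or tamoxifen array 5 (up to 0.0557). After quantile normalization Rrad, Camk2g and Tnnc1 were not called.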

How the data were processed

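Ventricular RNA of 10 mice was measured on 1 array each, labelled from 450 ng of total RNA. The deposited log2 signals are the authors' own; the submitters' processing notes list RMA and Affymetrix Expression Console 1.1. RMA in general corrects background, normalizes between arrays and summarises probes; whether the brightest or dimmest signals here are compressed was not tested. They carry no detection call. Groups came from the titles. Of 35556 probe sets, 21789 had 1 gene symbol in the platform annotation, 1621 several and 12146 none; 0 symbols needed updating. For a gene with several, the probe set with the highest mean was used, and the dimmest 30% of genes (cutoff 6.53) were left out, leaving 13953 of 19938. The fit was limma 3.58.1 in R 4.3.3 (lmFit, eBayes, two-sided, no covariate, Benjamini-Hochberg, threshold 0.05). Differences between 2 genes within an array had exact permutation tests, adjusted over 4. The labels do not say whether mice shared a litter. The code was tested on simulated data. Figures used matplotlib 3.10.9. The members and lists were chosen with earlier results of these data known. The text names the 10 members, defining markers, genes the results turn on and called genes. Of each role of the wider list it also names up to 4 genes with the smallest p. Asph, Fkbp1a, Fkbp1b and Bin1 are named outside this rule.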

Additional observations from a re-analysis of the deposited data

How the results depend on the processing

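With 5 arrays per group, small changes were near the limit of detection. Direction held for the 4 called members in every alternative. Ryr2, and Trdn on the probe set used, kept their calls under every alternative with all 10 arrays; 9 other Trdn probe sets were not called (adjusted p = 0.0603 to 0.742). Members called higher numbered 1 with dim genes kept in and 1 with vehicle array 4 and tamoxifen array 2 left out together, where Jph2 lost its call (adjusted p = 0.0576 and 0.0547); members called lower numbered 1 without the filter, where Hrc lost its call (0.0745). With 1 array left out, members called ranged from 1 to 2 higher and from 0 to 2 lower, and wider-list genes from 8 to 11 higher and from 2 to 4 lower; without the filter 2 of that list were lower. Beside the 0 members called lower without vehicle array 1, 3 or 5, both Ryr2 and Hrc still had negative values in limma. Over all genes, weighting arrays by quality gave 1784 lower calls in place of 1155. Deviations of same-numbered arrays correlated at 0.038 to 0.20, all positive but not all over 0.1, and the labels name nothing that the numbers share, so pairing was not established. With the replicate number as a block, members called lower numbered 1 (Ryr2, adjusted p = 0.0256, while Hrc lost its call at 0.0536). Members called higher then numbered 3 (Slc8a1 added, 0.0342). Pln minus Atp2a2 had an adjusted p of 0.0833 in an exact sign-flip test over the blocks, at the same 0.032. Sign flips over 5 pairs cannot give a p under 0.05, so no difference could pass there. Pln minus Atp2a2 was 0.028 with vehicle array 4 and tamoxifen array 2 left out together (adjusted p = 0.114). The groups still did not overlap there, and the exact permutation p was the lowest that the fewer arrays allow. With 1 array left out, the shift of Pln minus Atp2a2 was 0.026 to 0.036. Sln minus Atp2a2 ranged from -0.48 to -0.24, Slc8a1 minus Atp2a2 from 0.082 to 0.17 and Casq2 minus Ryr2 from 0.14 to 0.23 with 1 array left out; Casq2 minus Ryr2 passed without vehicle array 3 or tamoxifen array 1 (adjusted p = 0.0476). With averaged probe sets Slc8a1 minus Atp2a2 was 0.23 and passed. Sln was not tested with the dimmest 50% left out. The causes of these changes were not tested.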

Other observations

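The genes most like each called member were sought over the 10 arrays, by the Pearson correlation of each gene's deviations from its group means with those of the member; these are descriptions over arrays that share their depth and scaling, with no p. The gene closest to Ryr2 was Smarcc1, a chromatin remodelling subunit (r = 0.93), which rose by 0.22 where Ryr2 fell. For Hrc it was Glud1, the mitochondrial glutamate dehydrogenase (r = 0.97), which fell by 0.29. For Trdn it was Mmp25, a membrane-bound matrix protease (r = 0.95, log2 fold change -0.11, not called), and for Jph2 it was Gng10, a G protein subunit (r = 0.97), which rose by 0.18. Each was picked from 13953 tested genes over 10 arrays, where such high r values can arise without any link. None of the 3 closest genes of any called member was itself one of the 10 calcium cycling genes. With so few members among the tested genes, that absence says little about them.

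No array passed Dixon's test within its group of 5 in any of the 10 genes or the 4 within-array differences. Of 28 groups of values, 0 passed, where chance alone gives about 1 in 20. With 5 values the test has little power, and leaving out tamoxifen array 5 still changed the Sln result, as given above.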
